A study of Mus musculus with 6 samples.

Results

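The miR-26 and miR-148/miR-152 families are 2 groups of microRNAs (miRNAs), each held together by a common seed, bases 2 to 8 of the mature strand, which is the main stretch that pairs with target transcripts. The 5 members were listed by name: mmu-miR-26a-5p and mmu-miR-26b-5p in the first family, and mmu-miR-148a-3p, mmu-miR-148b-3p and mmu-miR-152-3p in the second. Of the 5, 3 were analysed, among 598 miRNA names in all: mmu-miR-26a-5p, mmu-miR-26b-5p and mmu-miR-148b-3p. mmu-miR-148a-3p and mmu-miR-152-3p were not analysed here. Small RNA was sequenced from exosomes, small membrane vesicles that cells release, of Raw264.7 cells, a wild-type mouse macrophage line. M0-exo came from cells that received no cytokine and were kept in normal culture for 24 h (3 libraries). M2-exo came from cells given IL-4 at 20 ng/mL together with IL-13 at 20 ng/mL for 24 h (3 libraries). In both groups the medium was then changed to one without serum, and exosomes were taken from the supernatant by ultracentrifugation. The comparison asks which miRNAs differ in exosomes after this polarization. All 6 libraries carry the same batch label. Nothing in the labels says that the 3 libraries of a group came from separate cultures, so the spread between these libraries may be technical. In the main edgeR fit, p-values, SEs and intervals rest on that spread pooled over miRNAs, not on each miRNA's own spread.

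As background, a miRNA guides Argonaute to transcripts that match its seed and lowers their translation and stability, and exosomes can carry miRNAs from one cell to another. miR-26 is known for repressing Ezh2, the methyltransferase of Polycomb repressive complex. The miR-148/miR-152 family is known for repressing DNA methyltransferases, among them Dnmt1.

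The mature sequences are shown because the seed defines each family and because the members differ by a few bases outside it. They were taken from RefSeq (GRCm38.p6), which held all 5 members, and are written 5′ to 3′ with the seed, bases 2 to 8, in capitals.
mmu-miR-26a-5p: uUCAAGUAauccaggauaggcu
mmu-miR-26b-5p: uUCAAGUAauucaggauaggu
mmu-miR-148a-3p: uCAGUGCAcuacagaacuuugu
mmu-miR-148b-3p: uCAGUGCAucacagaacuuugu
mmu-miR-152-3p: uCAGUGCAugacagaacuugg

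The deposited sequence was identical to the RefSeq one for each of the 3 members analysed. Counted from 1 at the 5′ end, mmu-miR-26b-5p differs from mmu-miR-26a-5p by C11U and C21U and is 1 base shorter. mmu-miR-148b-3p differs from mmu-miR-148a-3p by C9U and U10C. mmu-miR-152-3p differs from mmu-miR-148b-3p by C10G and U20G and is 1 base shorter. Among the 598 names analysed, 0 others carry either seed.

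The hairpins of miR-26 are shown because the same mature strand comes from a pair of them. Both mature arms are in capitals, the 5′ arm first.
Mir26a-1: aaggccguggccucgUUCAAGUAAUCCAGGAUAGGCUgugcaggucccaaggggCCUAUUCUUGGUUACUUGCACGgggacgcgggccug
Mir26a-2: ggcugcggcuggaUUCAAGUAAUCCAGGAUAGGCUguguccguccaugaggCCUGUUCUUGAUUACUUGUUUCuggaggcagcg
Mir26b: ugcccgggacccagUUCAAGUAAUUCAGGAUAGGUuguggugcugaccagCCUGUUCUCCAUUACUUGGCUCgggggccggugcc

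In GRCm38.p6, Mir26a-1 lies at chr9:119031796-119031885 on the plus strand in an intron of Ctdspl, and Mir26b at chr1:74394310-74394394 on the plus strand in an intron of Ctdsp1. Mir26a-2 lies at chr10:126995530-126995613 on the plus strand within Ctdsp2, where an exon of 2 of the 3 annotated transcripts that span it overlaps the hairpin. Ctdsp1, Ctdsp2 and Ctdspl encode small phosphatases of the RNA polymerase II C-terminal domain. Mir148b lies at chr15:103285125-103285221 on the plus strand in an intron of Copz1, which encodes a coatomer subunit. These positions are those of the annotation. The entries of mmu-miR-26a-5p for its 2 hairpins hold the same counts except in M2-exo 2, with 4634 for mir-26a-1 and 4635 for mir-26a-2, so the hairpin of origin cannot be told apart and 1 entry was used.

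The libraries held 1453348, 1155464 and 863194 counts in M0-exo 1 to 3 and 937317, 860204 and 969974 in M2-exo 1 to 3, with 1 entry per miRNA name. The let-7 family with miR-98 took 74.92% to 77.87% of them. Levels below are counts per 1000000 (CPM) after scaling by the trimmed mean of M values (TMM), with factors of 1.075, 1.084 and 1.077 across M0-exo and 0.9114, 0.9698 and 0.9016 across the M2-exo libraries.

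Both miR-26 members were higher in M2-exo than in M0-exo under this scaling, each by about the same factor, and both calls were lost with an offset for GC content fitted on miRNAs that averaged 10 or more counts. In such bulk material, more vesicles rich in miR-26 and more miR-26 per vesicle cannot be told apart. Of the miR-148/miR-152 family, mmu-miR-148b-3p was analysed, and it was at the limit of detection in both groups.

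mmu-miR-26a-5p, the more abundant member, was counted 6666, 4684 and 3341 times across M0-exo 1 to 3 and 4667, 4635 and 5452 times across M2-exo 1 to 3. On the scaled level this was 4268, 3741 and 3592 CPM across M0-exo and 5463, 5556 and 6234 CPM across the M2-exo libraries. The 3 M2-exo libraries all lay above the 3 M0-exo libraries, with M2-exo 3 the highest and M0-exo 3 the lowest. The mean was 3867 ± 355 CPM for M0-exo and 5751 ± 421 CPM for M2-exo (SD, n = 3 each). The log2 fold change was 0.57 with an SE of 0.095, a 1.49-fold higher level (95% interval 1.31 to 1.69), with an adjusted p of 7.499e-08 in edgeR's quasi-likelihood test.

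mmu-miR-26b-5p was counted 2405, 1433 and 1252 times across M0-exo 1 to 3 and 1662, 1464 and 2025 times across M2-exo 1 to 3. The scaled level was 1539.8, 1144 and 1346 CPM across M0-exo and 1946, 1755 and 2316 CPM across the M2-exo libraries. The groups did not overlap here either, M2-exo 3 was again the highest, and the gap between M0-exo 1 and M2-exo 2 was smaller than the range within M0-exo. The mean was 1343 ± 198 CPM for M0-exo and 2005 ± 285 CPM for M2-exo (SD, n = 3 each). The log2 fold change was 0.58 with an SE of 0.114, a 1.49-fold higher level (95% interval 1.28 to 1.74), with an adjusted p of 1.17e-05 in edgeR's test.

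**Figure D1:**
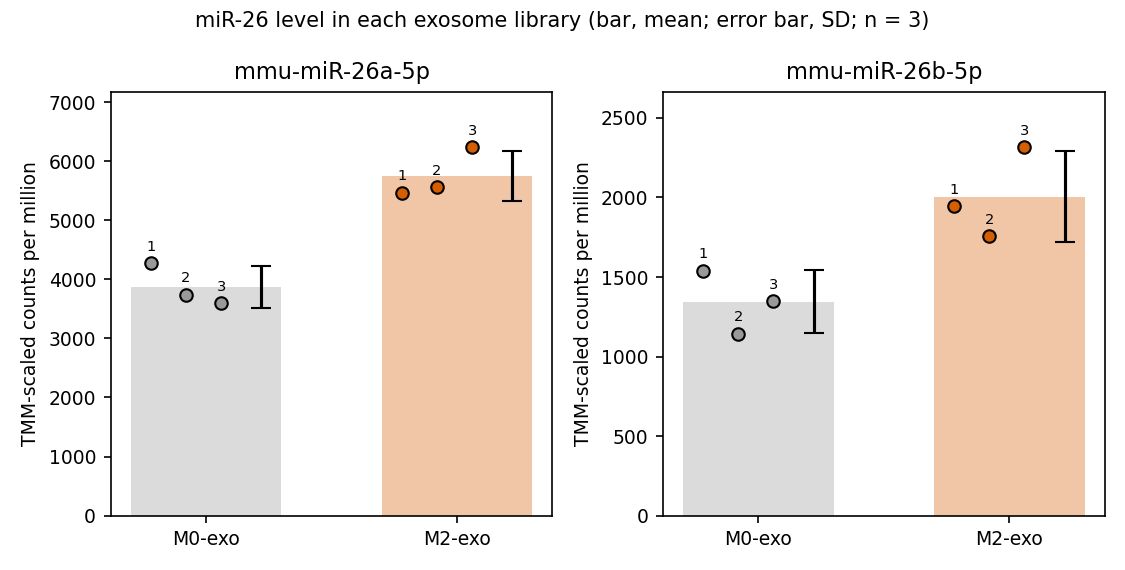
TMM-scaled CPM of mmu-miR-26a-5p (left) and mmu-miR-26b-5p (right) in each library, with points numbered by replicate, bars at the group mean and error bars of 1 SD (n = 3). For both members the 3 M2-exo points sit above the 3 M0-exo points, with mmu-miR-26a-5p from 5463 to 6234 against 3592 to 4268.

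Of the 2 miR-26 members, 2 were higher at an adjusted p below 0.05, where 25 of 598 miRNAs were (4.18%), and 25 of the 110 that averaged 100 or more counts per library (22.7%). By the rule of the study, a log2 fold change of 0.5 or more in either direction with an unadjusted p below 0.05, 2 of 2 were higher, against 22 of 598 (3.68%). Counted in either direction, that rule called 60 of 598 and 36 of the 110 abundant ones. Both miR-26 members had every M2-exo library above every M0-exo library, which held for 57 of 598 miRNAs (9.53%) and for 34 of the 110 abundant ones (30.9%). The median log2 fold change of the 2 members was 0.58, beside 0.03 over all 598 and 0.08 over the 110. Among those 110 miRNAs, 10 had a larger log2 fold change than mmu-miR-26a-5p and 9 a larger one than mmu-miR-26b-5p. Over all 598, most of which averaged under 100 counts, 186 and 184 did. These values over all 598 include fitted fold changes of miRNAs near the floor, for which no fold is given elsewhere. Both members thus lay in the upper range of the abundant miRNAs.

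GC content moved with the fold change across miRNAs. mmu-miR-26a-5p has 40.9% GC and mmu-miR-26b-5p 33.3%. Of the 110 abundant miRNAs, the 44 with under 50% GC had a median log2 fold change of 0.20, with 15 higher and 2 lower at an adjusted p below 0.05. The 39 with 50% to under 60% had a median of -0.05, with 4 higher and 9 lower. The 27 with at least 60% had a median of -0.18, with 6 higher and 11 lower. The miRNAs of low GC thus leaned towards M2-exo and those of high GC towards M0-exo, with exceptions on both sides. Spearman's correlation between GC content and log2 fold change over the 110 was -0.371, as a description of miRNAs that share the same libraries and scaling. In the group under 50% GC, 4 miRNAs lay above mmu-miR-26a-5p and 3 above mmu-miR-26b-5p, and in the group of at least 60% GC 6 lay above each.

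With an offset for GC content fitted in each library on miRNAs that averaged 10 or more counts, the log2 fold change of mmu-miR-26a-5p was 0.28 (adjusted p = 0.385 in edgeR) and that of mmu-miR-26b-5p 0.08 (adjusted p = 0.824 in edgeR). Both calls were thus lost, and the number of miRNAs with an adjusted p below 0.05 fell from 53 to 25. When the offset was fitted on the 110 abundant miRNAs alone, a setting chosen after seeing the data, the values were 0.32 (adjusted p = 0.000369 in edgeR) and 0.24 (adjusted p = 0.111 in edgeR). Whether GC content had a part in the higher miR-26 level was not tested beyond these offsets.

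**Figure D2:**
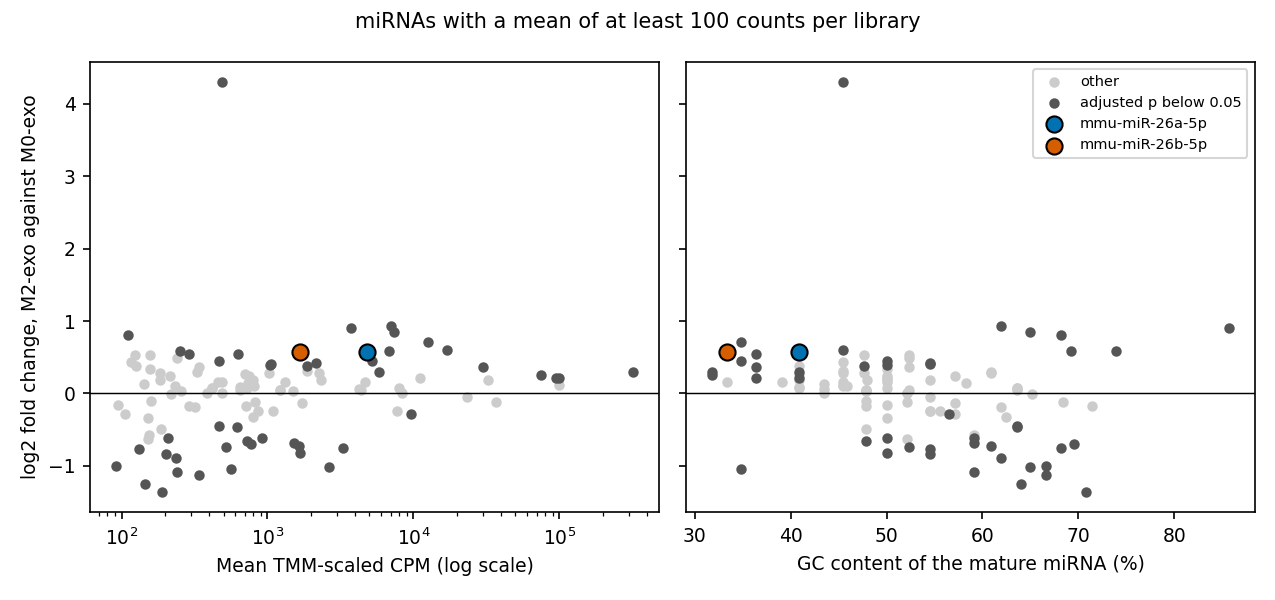
Log2 fold change, M2-exo against M0-exo, of the 110 miRNAs that averaged 100 or more counts, against the mean scaled CPM on a log axis (left) and the GC content of the mature strand in percent (right); dark points have an adjusted p below 0.05 and the miR-26 members are coloured. The members sit at 0.57 and 0.58 among other raised miRNAs, and of the 44 points under 50% GC, 39 lie above 0.

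The size of the difference also followed the scaling. Without scaling beyond the library total, the log2 fold change was 0.35 for mmu-miR-26a-5p (adjusted p = 0.00259 in edgeR) and 0.36 for mmu-miR-26b-5p (adjusted p = 0.0273 in edgeR), under the study's threshold of 0.5. The median of all miRNAs then lay at -0.178, and relative to it the members were at 0.53 each. On the deposited reads per 1000000 (RPM), mmu-miR-26a-5p was at 3015, 2697 and 2559 across M0-exo and 3222, 3513 and 3628 across the M2-exo libraries, and the groups did not overlap on that scale either. mmu-miR-26b-5p was at 1088, 825.04 and 959 RPM across M0-exo and 1147, 1109.6 and 1348 RPM across the M2-exo libraries, where the lowest M2-exo library stood just above the highest M0-exo library. Per 1000 counts of let-7 and miR-98 in the same library, mmu-miR-26a-5p ranged from 5.11 to 5.95 in M0-exo and from 6.39 to 7.22 in M2-exo, and mmu-miR-26b-5p from 1.66 to 2.15 and from 2.23 to 2.68.

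**Figure D3:**
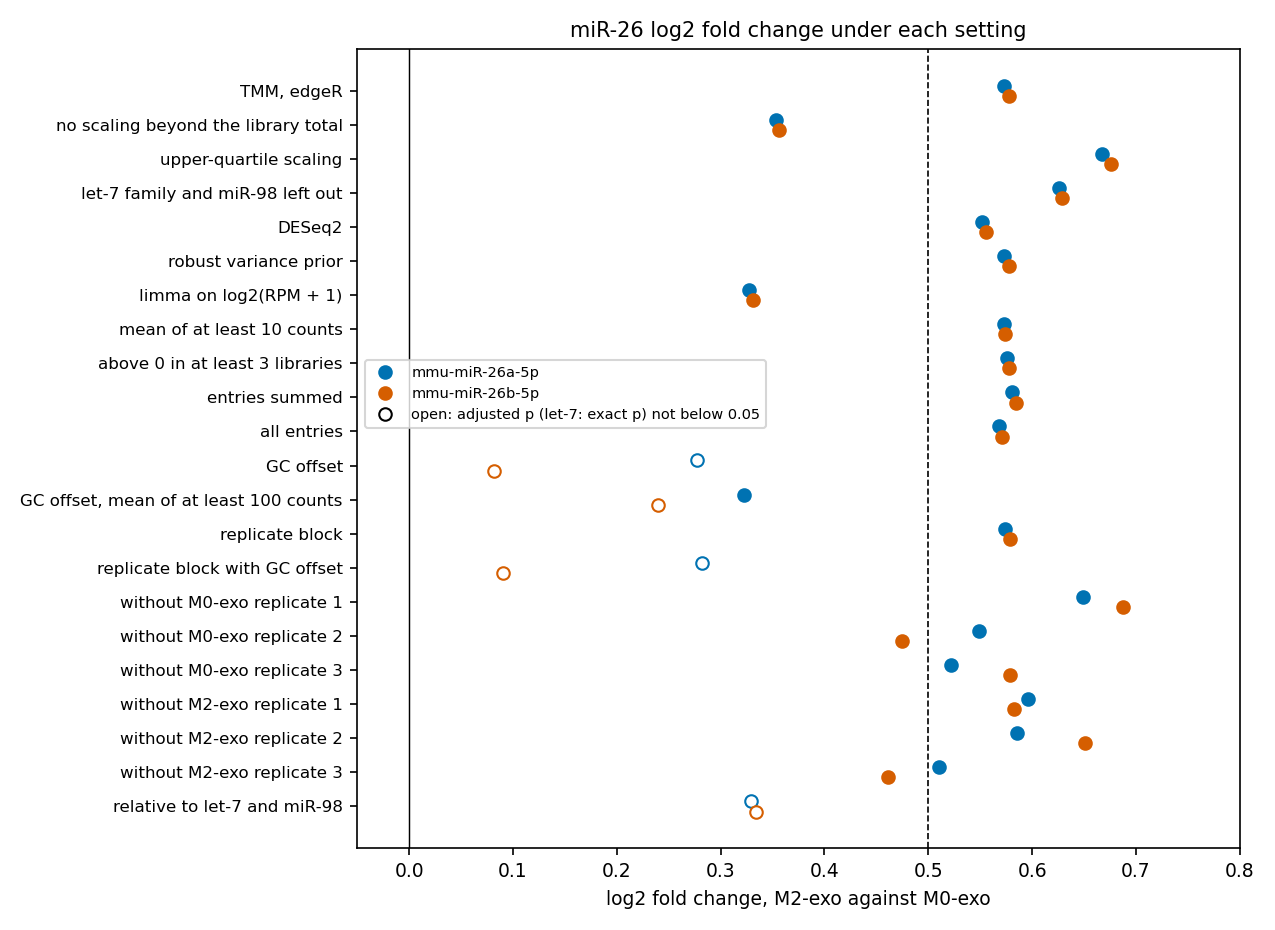
Log2 fold change of mmu-miR-26a-5p and mmu-miR-26b-5p under each scaling, tool, filter, GC offset, block or left-out library; open points have an adjusted p not below 0.05 (for counts relative to let-7, the exact p, which cannot pass it with 3 libraries a group), and the dashed line marks 0.5. All points lie above 0, from 0.28 to 0.67 for mmu-miR-26a-5p and from 0.08 to 0.69 for mmu-miR-26b-5p.

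Taken as a sum, the miR-26 family held 0.6241%, 0.5294% and 0.5321% of all counts in M0-exo 1 to 3 and 0.6752%, 0.709% and 0.7708% in M2-exo 1 to 3. The exact 95% binomial interval of the highest M0-exo library, 0.6114% to 0.6371%, lay below that of the lowest M2-exo library, 0.6587% to 0.692%. Such intervals cover counting error only. By mean level over the 6 libraries, mmu-miR-26a-5p ranked 22 and mmu-miR-26b-5p 36 of the 598 miRNAs. Library by library, mmu-miR-26a-5p ranked 22, 26 and 27 across M0-exo and 22, 22 and 21 across M2-exo. The ranks of mmu-miR-26b-5p were 38, 43 and 40 across M0-exo and 33, 34 and 31 across M2-exo.

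mmu-miR-26a-5p made up 73.49%, 76.57% and 72.74% of the family's counts across M0-exo and 73.74%, 76% and 72.92% across the M2-exo libraries. Replicate 2 was the highest in both groups and the ranges overlapped. The log2 ratio of mmu-miR-26a-5p to mmu-miR-26b-5p, which does not depend on the scaling between libraries, was 1.53 ± 0.16 in M0-exo and 1.53 ± 0.12 in M2-exo (SD, n = 3 each). Its difference was -0.0048, with a two-sided exact p of 1 when the libraries were permuted between the groups. With 20 arrangements no p under 0.1 can be reached, so this test could not have passed 0.05 and says nothing of whether the proportion differs. Its sign turned in leave-one-out runs and was not read.

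mmu-miR-148b-3p, the member of the miR-148/miR-152 family that was analysed, had 0 counts in all 3 M0-exo libraries and 1, 0 and 0 counts in M2-exo. A single count in M2-exo 1 was thus its whole signal. Pooled over M2-exo, this was 0.361 CPM (exact 95% interval 0.00915 to 2.01), and in M0-exo 0 of 3472006 counts (exact 95% interval up to 1.06 CPM, and 0.864 CPM by the limit of 3 counts). No fold is given, and a difference was not detectable at this depth. mmu-miR-148b-3p had an adjusted p of 0.6119 in edgeR's test and 0 of 1 member passed it. It did not pass in limma, DESeq2 gave it no adjusted p, and its unadjusted p was not below 0.05 in any of these tools.

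Of the 6 other arms of the hairpins, mmu-miR-26b-3p was read, and the others were not analysed here. It was at 0 counts throughout M0-exo and at 1, 5 and 1 in the M2-exo libraries, with most of them in M2-exo 2. Of the counts of both arms of Mir26b, the 3′ arm took 7 of 5158 in M2-exo (0.136%, exact 95% interval 0.0546% to 0.279%) and 0 of 5090 in M0-exo (exact 95% interval up to 0.0725%, and 0.0589% by the limit of 3 counts). Its adjusted p was 0.4927 in edgeR, so the difference did not pass the test.

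A chosen list of other miRNAs known to repress such enzymes held the miR-101 members, for Ezh2, and the miR-29 members, for the de novo DNA methyltransferases; it is not a full set. Of these 6, 0 passed an adjusted p below 0.05 in edgeR or limma, nor did any of the 4 to which DESeq2 gave an adjusted p, and 0 had an unadjusted p below 0.05 in any of these tools. In edgeR 4.18% of the 598 miRNAs were higher and 4.68% lower by adjusted p, and 87 of 598 had an unadjusted p below 0.05, so a count of 0 among 6 is near the background and is no result about this list. mmu-miR-29a-3p, the most abundant, had 611, 716 and 569.9 CPM across M0-exo and 585, 693 and 739 across the M2-exo libraries. The groups overlapped, with a log2 fold change of 0.09 (SE 0.14, adjusted p = 0.7789 in edgeR). Its 95% interval ran from -0.19 to 0.36. mmu-miR-29b-3p had a log2 fold change of 0.16 with an SE of 0.321 and an interval from -0.47 to 0.79. Whether these differ from the miR-26 values was not tested. mmu-miR-29c-3p had 2 to 15 counts per library and mmu-miR-101b-3p 3 to 19. mmu-miR-101a-3p and mmu-miR-101c each list 2 counts in M2-exo 3 and 0 elsewhere. The median log2 fold change was 0.24 over the 4 with a fold.

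**Figure D4:**
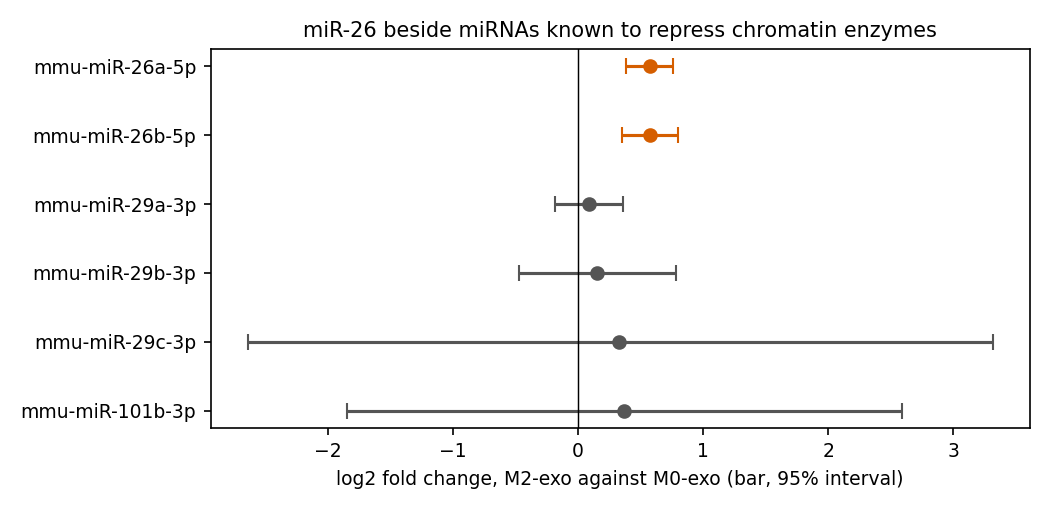
Log2 fold change, M2-exo against M0-exo, with its 95% interval from edgeR (n = 3 libraries a group), for the miR-26 members and the 4 listed miRNAs with a fold. The miR-26 intervals lie above 0, and those of mmu-miR-29c-3p and mmu-miR-101b-3p, with 2 to 19 counts per library, are the widest.

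The miRNAs whose level followed the miR-26 sum most closely over the 6 libraries, among 108 that averaged 100 or more counts, were mmu-miR-7a-5p (Pearson's r = 0.98), mmu-miR-16-5p (r = 0.976) and mmu-miR-24-3p (r = 0.97). These values describe libraries that share the group split and the scaling. mmu-miR-7a-5p was counted 16414, 10754 and 9090 times across M0-exo 1 to 3 and 13473, 12143 and 14640 times across M2-exo 1 to 3. The log2 fold changes were 0.71, 0.60 and 0.41 in that order. They are given as a description with no test, since miRNAs chosen to follow a sum that separates the groups had to differ between them. mmu-miR-148b-3p had too few counts for such a list.

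Marker miRNAs of the cells that exosomes might come from were read beside these values. The 6 myeloid markers, with mmu-miR-155-5p the most abundant in M0-exo and mmu-miR-142a-3p in M2-exo, summed to 1839, 1413 and 1353 CPM across M0-exo and 1274, 1425 and 1559 CPM across the M2-exo libraries, and none was at 0 in a library. By adjusted p in edgeR 2 were higher and 1 lower, where 4.18% of the 598 miRNAs were higher and 4.68% lower. DESeq2 and limma called 0 higher and 1 lower, as did edgeR with the GC offset and without M0-exo 2, M0-exo 3 or M2-exo 3. With the GC offset the log2 fold change of mmu-miR-142a-3p went from 0.45 to 0.011 and that of mmu-miR-21a-5p from 0.55 to 0.16, while that of mmu-miR-155-5p, the 1 lower, went from -1.04 to -1.49. DESeq2 called 6.96% higher and 5.93% lower of the 388 miRNAs to which it gave an adjusted p, and limma 1.51% and 7.19% of the 598.

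Of the 5 serum or blood cell markers, 4 were analysed here, and they summed to 121, 157 and 145 CPM across M0-exo and 294, 209.8 and 2623 CPM across the M2-exo libraries. The sum in M2-exo 3 was mostly mmu-miR-122-5p, with 63, 59 and 51 counts across M0-exo and 137, 107 and 2184 across the M2-exo libraries. By adjusted p in edgeR and in limma, 1 of these 4 was higher and 0 lower. Over the 598 miRNAs, edgeR called 4.18% higher and 4.68% lower, and limma 1.51% and 7.19%. DESeq2 called 0 of these 4 and gave mmu-miR-122-5p no adjusted p. In edgeR the log2 fold change of mmu-miR-122-5p went from 4.30 to 1.61 without M2-exo 3 (adjusted p = 0.000105 in edgeR). mmu-miR-451a was at 0 in M0-exo 2 and mmu-miR-150-5p in M0-exo 2 and 3. The stromal markers, 2 of 4 analysed here and mmu-miR-143-3p the most abundant, summed to 19.8, 18.4 and 23.7 CPM across M0-exo and 43.3, 31.2 and 74.3 CPM across the M2-exo libraries, and mmu-miR-199a-3p was at 0 in M0-exo 2 and 3. Of these 2, 0 passed by adjusted p in edgeR or limma and 1 did in DESeq2, where 6.96% of 388 were higher and 5.93% lower. In edgeR 1 had an unadjusted p below 0.05, where 87 of 598 miRNAs did. M2-exo 3 was the highest library for the serum and stromal lists and for miR-26. Without M2-exo 3, the log2 fold change was 0.51 for mmu-miR-26a-5p (adjusted p = 1.3e-05 in edgeR) and 0.46 for mmu-miR-26b-5p (adjusted p = 0.00223 in edgeR), the second under the study's fold threshold. The part of these other sources in the M2-exo level of miR-26 was not tested otherwise.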

How the data were processed

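Small RNA libraries of 6 exosome samples, 3 M0-exo and 3 M2-exo, were grouped by their titles. The deposited table holds counts per miRNA entry and RPM, which the authors obtained by dividing each count by the sum over all 638 entries (recomputed within 0.005). The submitters' processing notes name mm39; the aligner and counter are not given in the sources used here. Of the entries of a name, the one with the highest total was used (35 names had several), which gave 598 names. Counts were tested with edgeR 4.0.16 (TMM, glmQLFit and glmQLFTest) in R 4.3.3, with Benjamini-Hochberg adjustment over all 598. The prior degrees of freedom were estimated as infinite, so the variance was pooled over miRNAs and not each miRNA's own. DESeq2 1.42.0 and limma 3.58.1 on log2(RPM + 1) were alternatives, as were other scalings, filters on low counts, a loess offset on GC content (span 0.75, miRNAs with a mean of at least 10 counts), a replicate block and each library left out. Named were the members, the other arms of their hairpins, names with the same seed, a chosen list of miRNAs that repress such enzymes, and the 3 most similar abundant miRNAs. No fold is given where all libraries of a group were at or under 3 counts. Medians, calls and ranks over all 598 still include the fitted values of such miRNAs. The members and lists were chosen with earlier results of these data known. Sequences and positions are RefSeq's on GRCm38.p6, host genes GENCODE's; nothing was converted between builds. Figures were drawn with matplotlib 3.10.9 in Python 3.11.15.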

Additional observations from a re-analysis of the deposited data

How the results depend on the processing

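Under 21 alternatives each, 2 of them added after seeing the data, the log2 fold change of mmu-miR-26a-5p was above 0 in 21, passed its test at 0.05 (adjusted p, or the exact p relative to let-7) in 18 and was at 0.5 or more in 15, and that of mmu-miR-26b-5p in 21, 17 and 13; the adjusted p ranged from 1.9e-10 to 0.649 and from 3.18e-07 to 0.991. The GC offset gave 0.2768 and 0.08204, and fitted on abundant miRNAs (added) 0.2395 for mmu-miR-26b-5p; the cause was not tested. Relative to let-7 (added), the values were 0.3289 and 0.3337 with an exact p of 0.1, the smallest possible. The replicate block gave 0.5739 and 0.5785, and the replicate block with the GC offset 0.282 and 0.09017 (adjusted p = 0.649 and 0.991 in edgeR). Same-numbered libraries correlated at -0.043, 0.0163 and -0.0462. With 3 libraries a group and many miRNAs of low count, these values cannot show whether the numbers pair the libraries. In leave-one-out runs mmu-miR-26a-5p gave 0.5105 to 0.6494 and mmu-miR-26b-5p 0.4614 to 0.6877, under 0.5 without M0-exo 2 (0.4744) and without M2-exo 3 (0.4614). The log2 ratio of the members ran from -0.07262 to 0.08362, above 0 without M0-exo 2 (0.08362), M2-exo 1 (0.01391) and M2-exo 3 (0.04427). The 53 miRNAs with an adjusted p below 0.05 became 25 with the GC offset, 20 with it and the replicate block, and 33 (without M0-exo 2) to 59 in leave-one-out runs. The 60 called by the study's rule (22 higher, 38 lower) became 27 with a fold threshold of 1 on the log2 scale, and that rule called 73 without scaling (10 higher, 63 lower), 71 in limma (11, 60) and 67 with upper-quartile scaling (32, 35).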
